A study of Rattus norvegicus with 24 samples.

Results

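Drug-free rats of the self-administration experiment were compared with drug-free rats of the injection experiment in the nucleus accumbens (NAc). The comparison takes 8 of the 24 libraries of the series, 4 from rats that self-administered saline (Saline-SA) and 4 from rats that were injected with saline (Saline-Saline), and every group was taken from the labels. All rats were adult male Sprague Dawley rats, 8 weeks old on arrival, and none of these 8 received heroin or lipopolysaccharide (LPS). Saline-SA rats had a catheter placed in the jugular vein, recovered for a week, worked for saline infusions in operant chambers for 6 h a day in 10 daily sessions, and were euthanized immediately after the last session. Saline-Saline rats were given saline into the peritoneum, first as 5 injections spread over a fortnight and later once a day on 5 days, and per the labels were euthanized 1 h after the last injection. The study's methods add that the injected rats were pair-housed on a normal light cycle and spent a short session in a locomotor chamber after the last injection, while self-administering rats were single-housed after surgery on a reversed light cycle. Surgery, housing, light phase, training, the interval before euthanasia, dissection and any difference in handling of the libraries therefore all go with the group, and cannot be told apart in these data. Each library is RNA of 1 rat and of the NAc core and shell together, and in such bulk tissue fewer cells of a type and less RNA per cell cannot be told apart.

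The NAc is built mainly of medium spiny neurons, GABA-releasing projection cells that carry either the dopamine D1 or the D2 receptor and integrate dopamine with glutamate input from cortex, hippocampus, amygdala and thalamus. Immediate early genes such as Fos and Egr1 are transcribed within minutes of neuronal or hormonal stimulation and decay within hours, clock genes follow the time of day, and glucocorticoid target genes follow the stress hormone corticosterone.

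FPKM values are fragments per kilobase of gene and per unit of a library total. Reads on genes, recovered from the deposited FPKM values, numbered 17097687, 18288437, 14587621 and 15272113 in Saline-SA and 15361118, 14939352, 14179227 and 14128604 in Saline-Saline. The total behind the deposited values was 0.940 to 1.012 times the reads on genes in Saline-SA and 1.014 to 1.048 times in Saline-Saline. Medium spiny neuron markers were abundant in every library. Drd1 (dopamine D1 receptor) stood at 75.3, 74.9, 82.97 and 51.2 FPKM in Saline-SA and 41.1, 60.3, 88.5 and 45.4 in Saline-Saline, and Ppp1r1b, which encodes the dopamine signalling protein DARPP-32, at 1053, 1079, 1452 and 803 FPKM in Saline-SA and 523, 782, 969.9 and 488 in Saline-Saline. Neither differed past the test (BH-adjusted p = 0.381 and 0.0748 by limma, where BH stands for Benjamini-Hochberg over all genes tested). Slc17a7, the vesicular glutamate transporter of cortical neurons, was present at 207, 177, 40.8 and 162 FPKM in Saline-SA and 108, 224, 73.8 and 227 in Saline-Saline, with a spread of several fold within both groups. Zic1, a transcription factor of the septum and neighbouring regions, ranged widely at 5.62, 6.62, 8.12 and 18.05 FPKM in Saline-SA and 57.7, 6.77, 10.5 and 31.4 in Saline-Saline. Ttr, the marker of choroid plexus, stood at 0.165, 0, 0.5199 and 0.758 FPKM in Saline-SA and 318, 0.188, 0 and 5.35 in Saline-Saline, so that 1 Saline-Saline library held nearly all of it. Of the cell type markers examined, Npy is listed at 0 in all 8 libraries. Haemoglobin transcripts set Saline-SA replicate 4 apart: Hba1, an alpha globin of red blood cells, was at 354, 348, 703 and 2949 FPKM in Saline-SA and 219, 242, 337 and 240.5 in Saline-Saline. On the first principal component of the 8 libraries, which held 32.8% of the variance, every Saline-SA library had a positive score and every Saline-Saline library a negative one, and Saline-SA replicates 3 and 4 lay farthest out on their side.

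Of 15150 genes with a mean of at least 0.5 FPKM, 3584 (23.7%) differed at a BH-adjusted p under 0.05 by limma on log2(FPKM + 0.1), 1484 (9.80%) with higher and 2100 (13.9%) with lower levels in Saline-SA. A log2 fold change here is always Saline-SA minus Saline-Saline on that scale, which understates changes of weakly expressed genes. In 4288 of the 15150 genes the groups did not overlap, with all Saline-SA libraries above or all below all Saline-Saline libraries. A lack of overlap given for a single gene below is thus a common trait. Counts of list members below stand beside the 9.80% higher and 13.9% lower of all genes. The lower genes differed by more: 541 of them and 117 of the higher genes passed an absolute log2 fold change of 1, and the median log2 fold change of called genes was -0.65 on the lower side and 0.43 on the higher side. The balance of the directions depended on scaling. Higher genes made up 41.4% of all calls as deposited, 56.4% after setting library medians equal and 28.5% with limma-voom on the recovered reads. The limma-voom fit was scaled to the reads on genes rather than to the totals behind the deposited values. Without Saline-SA replicates 3 and 4, 599 genes were called higher and 1370 lower, and the higher count was 971, 900 and 916 when Saline-SA replicate 3, Saline-Saline replicate 1 or Saline-Saline replicate 4 alone was left out. The share of lower calls was greater among long genes. Among genes in the shortest quartile, up to 1304 bases in the deposited table, 8.98% were lower and 9.22% higher, whereas in the longest quartile, from 3441 bases, 18.1% were lower and 10.1% higher. Higher calls were more common at strong levels, at 3.46% in the weakest quartile of mean FPKM and 16.2% in the strongest. Whether gene length or level has a part in the results that follow was not tested.

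**Figure D1:**
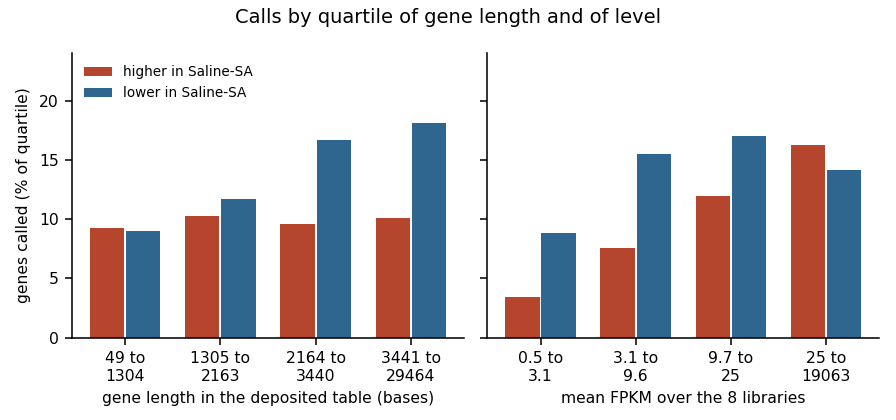
Share of genes called higher or lower in Saline-SA (y axis, % of the genes of each quartile) by quartile of gene length in bases (left) and of mean FPKM over the 8 libraries (right). Lower calls went from 8.98% in the shortest quartile to 18.1% in the longest, and higher calls from 3.46% at the weakest levels to 16.2% at the strongest.

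The genes with the smallest p among lower genes were Dhx9, Elavl3, Pcdh7, Camta1, Ogdh, Nufip2, Myo5a and Rab3c, chosen among genes with a proper symbol, a mean of at least 50 reads in the higher group and groups that do not overlap. Dhx9, an RNA helicase of nuclear RNA processing (rn6 chr13:70885504-70922245, minus strand), stood at 9.73, 9.33, 8.22 and 9.13 FPKM in Saline-SA and 28.5, 24.5, 28.3 and 27.4 in Saline-Saline. Its difference amounted to a log2 fold change of -1.57 ± 0.081 (SE), BH-adjusted p = 3.75e-05 by limma. Camta1, a calmodulin-binding transcription activator abundant in neurons, stood at 5.12, 5.47, 5.38 and 4.76 FPKM in Saline-SA and 21.4, 16.4, 21.2 and 19.4 in Saline-Saline (log2 fold change -1.89). Myo5a, the motor myosin Va that carries organelles along actin, stood at 12.1, 12.3, 11.9 and 11.4 FPKM in Saline-SA and 28.9, 25.5, 29.1 and 27.7 in Saline-Saline (log2 fold change -1.21). Elavl3, a neuronal RNA-binding protein, differed by -1.08, Pcdh7, a protocadherin of cell adhesion, by -2.15, Nufip2, an RNA-binding protein, by -1.80, and Ogdh, a subunit of the 2-oxoglutarate dehydrogenase complex of the Krebs cycle, by -1.24 on the log2 scale. Ogdh overlaps Zmiz2 on the same strand, so its reads may be divided between both genes. Under the same conditions the lower genes with the largest fold changes were Soga1 (-2.66), Pcdh11x (-2.53), a protocadherin of the X chromosome, Slc9a7 (-2.34), a sodium and proton exchanger of the Golgi, and Irs4 (-2.31), an insulin receptor substrate of hypothalamic neurons. Soga1 stood at 0.6698, 0.881, 0.6105 and 0.485 FPKM in Saline-SA and 6.47, 4.64, 3.74 and 4.14 in Saline-Saline, a fraction of the injected level in every Saline-SA library. Irs4 stood at 0.064, 0.469, 0.694 and 0.380 FPKM in Saline-SA and 4.33, 1.73, 2.27 and 1.03 in Saline-Saline, from 7 to 439 reads. Its BH-adjusted p by limma reached 0.0575 on leaving out 1 library. The other injection libraries ranged from 0.017 to 3.83 FPKM for Irs4, which overlaps the Saline-SA values.

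The genes with the smallest p among higher genes were Zfp958, Zcchc7, Tbx19, Ankrd10, Shisa7, Ccnt2, Snph and Mfge8, where the choice again took only genes whose groups do not overlap. Zfp958, a zinc finger gene (rn6 chr12:5485903-5490935, minus strand), stood at 13.8, 15.8, 15.1 and 15.6 FPKM in Saline-SA and 5.58, 5.41, 6.13 and 5.43 in Saline-Saline. The difference was a log2 fold change of 1.40 ± 0.082 (SE), BH-adjusted p = 4.56e-05 by limma. Zcchc7, a zinc knuckle protein of nuclear RNA surveillance, stood at 41.9, 44.1, 50.9 and 53.6 FPKM in Saline-SA and 19.6, 18.4, 23.02 and 21.8 in Saline-Saline (log2 fold change 1.20). Shisa7, an auxiliary protein of synaptic receptors, stood at 84.5, 76.6, 74.8 and 83.2 FPKM in Saline-SA and 36.7, 36.3, 47.9 and 42.5 in Saline-Saline (log2 fold change 0.97). In each, the lowest Saline-SA library was well above the highest Saline-Saline library. The others differed by 1.59 for Tbx19, a T-box transcription factor, 0.62 for Ankrd10, 0.63 for Ccnt2, cyclin T2 of the elongation factor P-TEFb, 0.55 for Snph, syntaphilin, which anchors axonal mitochondria, and 0.54 for Mfge8, a secreted protein that marks cells for phagocytosis, all on the log2 scale. Under these conditions the largest higher fold changes were those of Chchd10, Sla2, Fam131a and Hp. Chchd10, a protein of the mitochondrial intermembrane space, was uneven within its group at 248, 20.4, 237 and 150.0 FPKM in Saline-SA and 11.5, 20.2, 16.02 and 17.6 in Saline-Saline, with 1 Saline-SA library at the level of the highest Saline-Saline library (log2 fold change 2.85). Hp, the haptoglobin that binds free haemoglobin, stood at 4.16, 5.24, 5.81 and 6.58 FPKM in Saline-SA and 1.37, 1.902, 1.88 and 1.62 in Saline-Saline, and all Saline-SA libraries were above all Saline-Saline libraries (log2 fold change 1.62). Sla2, an adaptor of antigen receptor signalling, differed by 2.19, and Fam131a, which overlaps Map3k13, by 1.72.

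Mitochondrially encoded transcripts took a larger share of the reads after saline self-administration. The share on chromosome MT was 10.7%, 11.1%, 15.9% and 14.1% in Saline-SA and 6.82%, 8.24%, 8.64% and 7.41% in Saline-Saline. Every Saline-SA library was above every Saline-Saline library, with Saline-SA replicates 3 and 4 the highest. The means were 12.9% ± 2.47 in Saline-SA and 7.78% ± 0.819 in Saline-Saline (SD, n = 4 each), and the two-sided exact permutation test gave p = 0.0286, the smallest that 4 against 4 libraries can give. Libraries of rats that self-administered heroin (Heroin-SA) held 10.03% to 11.8%, and the 12 libraries of the 3 other injection groups stayed between 7.65% and 9.096%. All 8 self-administration libraries were thus above all 16 injection libraries.

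**Figure D2:**
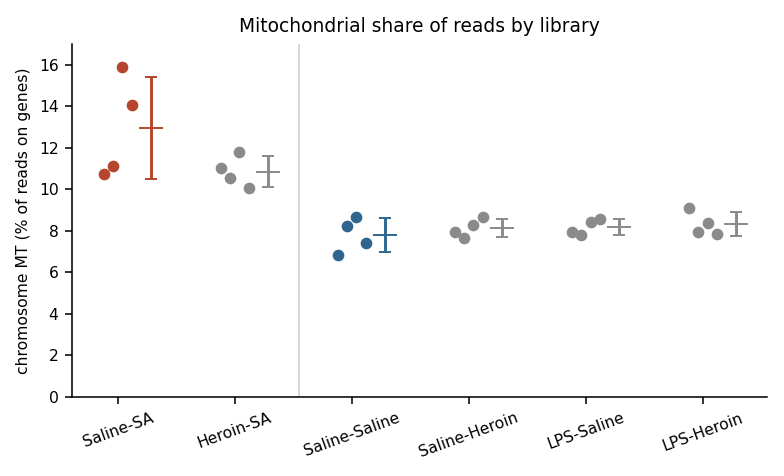
Reads on chromosome MT as % of reads on genes (y axis) in each of the 24 libraries by group. Points are libraries and the bars beside them the mean ± SD (n = 4), with the 8 self-administration libraries left of the grey line at 10.03% to 15.9% and the 16 injection libraries right of it at 6.82% to 9.096%.

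Of the 13 protein-coding genes of chromosome MT, which encode core subunits of the respiratory chain, 9 were called higher and none lower, with a median log2 fold change of 0.74 against 0.0083 over all genes tested. Mt-nd1, a subunit of complex I, stood at 8828, 8969.5, 13710.0 and 12063 FPKM in Saline-SA and 4680.1, 6167, 6337 and 5332 in Saline-Saline. The Saline-SA libraries were all above the Saline-Saline libraries (log2 fold change of 0.94 ± 0.21 (SE), BH-adjusted p = 0.0126 by limma). Mt-atp6, a subunit of ATP synthase, had a log2 fold change of 0.998, and Mt-co2 of complex IV one of 0.94. Mt-cytb (0.74), Mt-cox3 (0.85), Mt-nd2 (0.88), Mt-nd3 (0.91), Mt-nd6 (0.70) and Mt-atp8 (0.65) were also called. Mt-co1 did not overlap between the groups either, but missed the threshold at a log2 fold change of 0.67 (BH-adjusted p = 0.0538 by limma). Mt-nd4, Mt-nd4l and Mt-nd5 had overlapping groups and log2 fold changes of 0.25, 0.19 and 0.23. Several of these genes adjoin or overlap on the circular genome, so reads at their borders may be divided between neighbours. Under quantile normalization, which gives every library the same distribution, 2 of the 13 were called, and the log2 fold changes of Mt-cytb, Mt-co1 and Mt-nd4l turned to -0.11, -0.17 and -0.15 (BH-adjusted p = 0.441, 0.25 and 0.288 by limma). Leaving out Saline-SA replicate 4 left 5 calls, and leaving out Saline-Saline replicate 1 or 4 left 2. Without Saline-SA replicates 3 and 4, which had the highest share, 1 was called.

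Nuclear genes of the same machinery were rarely called. Among nuclear subunits of complex I, 1 of 32 was lower (3.1%) and none higher. Among those of complexes II to V, 2 of 40 were lower and 2 higher (5% each), against 13.9% and 9.80% of all genes. The lower ones were Ndufs1, the largest complex I subunit, Atp5a1, the alpha subunit of ATP synthase, and Sdha of complex II. Ndufs1 stood at 53.4, 53.7, 47.998 and 43.002 FPKM in Saline-SA and 72.7, 68.01, 74.9 and 74.3 in Saline-Saline, and Atp5a1 at 317, 324, 255 and 257 FPKM in Saline-SA and 358, 396, 400.2 and 398 in Saline-Saline. Saline-SA lay below Saline-Saline without overlap in both, with log2 fold changes of -0.55 and -0.44. Sdhd (0.32), which anchors complex II in the membrane, and Cox7a2l (0.29), an assembly factor of supercomplexes, were higher. With medians set equal the list of complexes II to V gave 5 higher and 1 lower, and its count of higher genes was 0 without Saline-SA replicate 2 or 3 or Saline-Saline replicate 1, 3 or 4, 4 without Saline-SA replicate 1 and 5 without Saline-SA replicate 4. Its lower count was 1 without Saline-SA replicate 1 or Saline-Saline replicate 1, 3 or 4, and that of complex I was 2 without Saline-SA replicate 2. Of the glycolysis list, 4 of 19 were lower (21.1% against 13.9% of all genes) and none higher. They were Slc16a1, the monocarboxylate transporter for lactate (-0.70), Hk1, the main brain hexokinase (-0.27), and the phosphofructokinases Pfkm (-0.30) and Pfkp (-0.27). Setting library medians equal gave 2 higher and 2 lower calls in that list, and 2 were lower without Saline-Saline replicate 3.

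Many cytosolic ribosomal protein genes were higher. Of 67 members tested 33 were called higher (49.3%) and none lower, with a median log2 fold change of 0.32. Higher calls made up 9.80% of all genes and 16.2% of genes in the strongest quartile of mean FPKM. Rpl3, of the large subunit, stood at 377, 373, 385 and 357 FPKM in Saline-SA and 272, 299, 286 and 287 in Saline-Saline. The groups did not overlap (log2 fold change of 0.38 ± 0.060 (SE), BH-adjusted p = 0.00311 by limma). Rpl29 stood at 375, 438, 478 and 489.6 FPKM in Saline-SA and 307, 302, 341 and 329 in Saline-Saline, again without overlap (log2 fold change 0.47). Log2 fold changes of called members went from 0.24 for Rpl18 to 0.54 for Rps15, and over all 67 from -1.02 to 1.71, with 5 below 0. Many ribosomal protein genes have processed pseudogenes and several symbols occur in more than 1 row of the table, of which the row with the highest level was taken, so their counts are uncertain to that extent. No member was called lower under any scaling tried (28 to 39 higher). Leaving out Saline-SA replicate 3 left 21 calls, and leaving out Saline-Saline replicate 1, 3 or 4 left 15, 19 and 15. There were 11 without Saline-SA replicates 3 and 4.

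**Figure D3:**
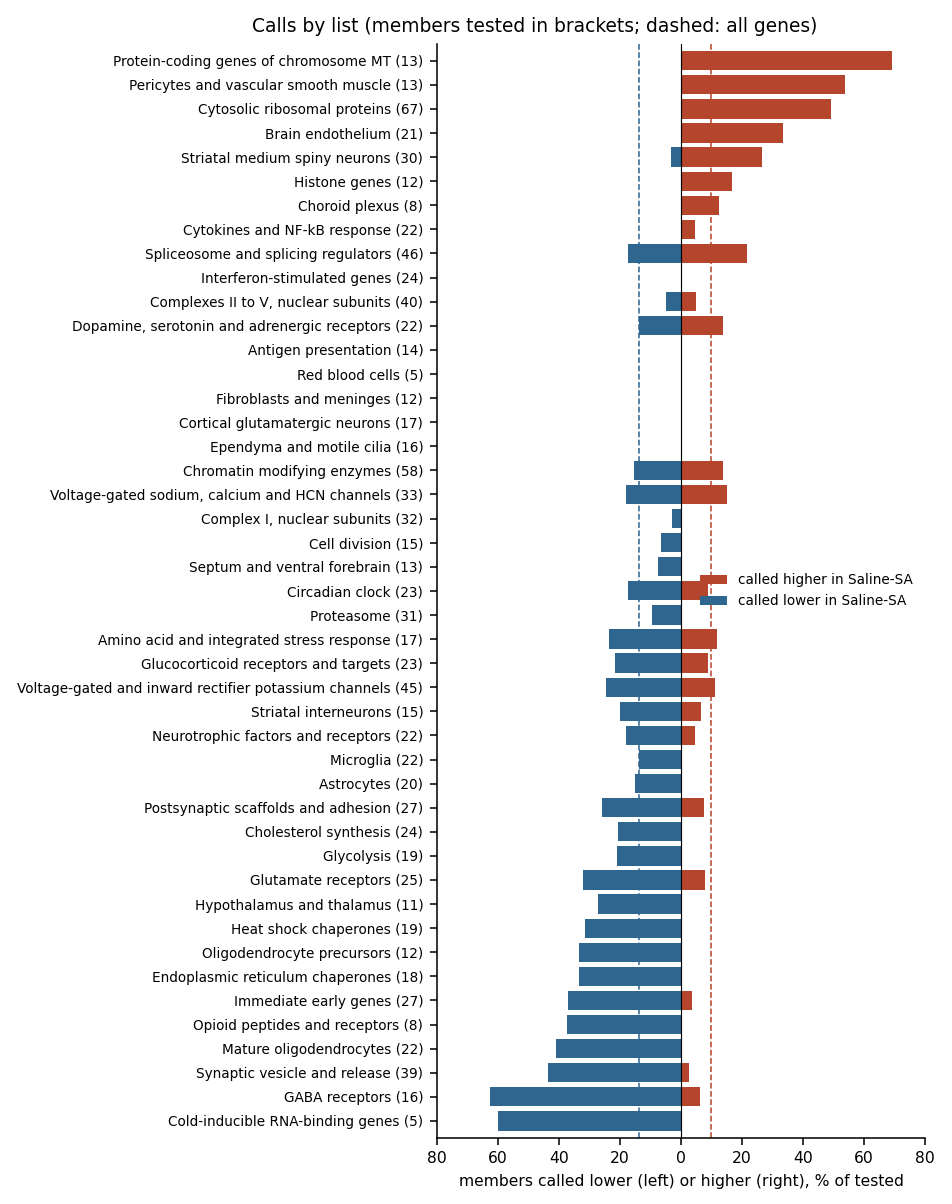
Members of each gene list called higher (right, red) or lower (left, blue) in Saline-SA, in % of the members tested, whose number stands in brackets. Dashed lines mark the same shares over all genes tested, 9.80% higher and 13.9% lower, and lists with the most higher calls stand at the top.

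Some markers of medium spiny neurons were higher. Of 30 markers tested 8 were called higher (26.7% against 9.80% of all genes) and 1 lower (against 13.9%), with a median log2 fold change of 0.42, and 24 of them had a positive one. Drd2, the dopamine D2 receptor (rn6 chr8:53678777-53743642, plus strand), stood at 73.8, 70.9, 91.9 and 56.5 FPKM in Saline-SA and 29.8, 39.6, 53.8 and 27.1 in Saline-Saline. Although the groups did not overlap, Saline-SA replicate 4 and Saline-Saline replicate 3 came close to each other (log2 fold change of 0.99 ± 0.22 (SE), BH-adjusted p = 0.0132 by limma). Rasd2, the striatal G protein Rhes, stood at 170.4, 171, 192 and 159 FPKM in Saline-SA and 88.8, 96.9, 125 and 75.8 in Saline-Saline, with all Saline-SA libraries higher (log2 fold change of 0.86 ± 0.14 (SE), BH-adjusted p = 0.0036 by limma). Rxrg, a retinoid X receptor, stood at 30.1, 26.2, 30.1 and 27.2 FPKM in Saline-SA and 13.99, 18.01, 22.01 and 13.4 in Saline-Saline and did not overlap either (log2 fold change 0.78). Rgs9 (0.91), a regulator of G protein signalling, Adora2a (0.83), the adenosine A2a receptor of D2 cells, Rarb (0.69), Gng7 (0.67) and Chrm4 (0.64), the muscarinic M4 receptor, were also higher, and the lower marker was Oprm1, the mu opioid receptor. The summed FPKM of the list overlapped between the groups, at 3187 to 5259 in Saline-SA and 2239.9 to 4172 in Saline-Saline. The count of higher markers moved between 4 and 13 when 1 library was left out, more than 1.5 times for each of the 7 libraries other than Saline-SA replicate 4, and was 1 without Saline-SA replicates 3 and 4.

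Of markers of striatal interneurons, 3 of 15 were lower and 1 higher (20% and 6.67%), against 13.9% and 9.80% of all genes. Nos1, the neuronal nitric oxide synthase, stood at 2.69, 2.19, 2.74 and 2.94 FPKM in Saline-SA and 5.202, 4.302, 5.07 and 6.86 in Saline-Saline, lower in Saline-SA without overlap (log2 fold change -0.98). It overlaps Fbxo21 on the same strand. Tacr3, the neurokinin 3 receptor, differed by -0.95, and Lhx6, a transcription factor of interneurons, by -0.82, while Htr3a, the serotonin 5-HT3a receptor, was higher (0.70), a call lost without Saline-SA replicate 1 or 2 or Saline-Saline replicate 1, 2 or 4. Chat, which makes acetylcholine, was not called at 3.59, 6.09, 5.904 and 5.53 FPKM in Saline-SA and 2.78, 3.803, 5.27 and 8.71 in Saline-Saline. For cortical glutamatergic neurons 0 of 17 markers were called, for septum and ventral forebrain 1 of 13 was lower, and for hypothalamus and thalamus 3 of 11 were. Those were Dlk1 (-1.26) on the septal list and Irs4, Baiap3 (-0.96) and Pomc (-0.87) on the hypothalamic one. The summed FPKM of the septal list was 60.6 to 93.6 in Saline-SA and 88.4 to 188 in Saline-Saline, and that of the hypothalamic list 28.98 to 57.1 in Saline-SA and 39.96 to 114 in Saline-Saline, with overlap in both. Choroid plexus markers summed to 5.46 to 8.41 in Saline-SA and 3.38 to 345 in Saline-Saline, and Kcne2, a potassium channel subunit of that epithelium, was the one marker called (0.63), though neither with limma-voom nor without any 1 library other than Saline-SA replicate 3 or Saline-Saline replicate 1, while none of 16 markers of ependyma and cilia was.

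Of glial markers none was called higher as the values were deposited, and the oligodendrocyte lineage held most of the lower calls. All 22 markers of mature oligodendrocytes, the myelin-forming cells, had negative log2 fold changes, with a median of -0.46, and 9 were called lower against 13.9% of all genes. Tf, the iron carrier transferrin that oligodendrocytes make, stood at 179.6, 194, 167 and 178 FPKM in Saline-SA and 342, 293, 242 and 265 in Saline-Saline. The groups did not overlap (log2 fold change of -0.66 ± 0.11 (SE), BH-adjusted p = 0.00361 by limma). Gjc3, a gap junction protein of oligodendrocytes, stood at 8.25, 7.604, 7.51 and 3.33 FPKM in Saline-SA and 30.2, 24.2, 20.4 and 23.2 in Saline-Saline, with the lowest value in Saline-SA replicate 4 (log2 fold change -1.93). Others were Ermn (-0.88), Mag (-0.73), Ugt8 (-0.68), Aspa (-0.64), Cldn11 (-0.49) and Fa2h (-0.45), whereas Mbp, the myelin basic protein, was at 2286, 2083, 2341 and 2519.8 FPKM in Saline-SA and 2954, 2946, 1903 and 2212 in Saline-Saline and was not called. The count of lower markers was 5 without Saline-SA replicate 4 or Saline-Saline replicate 1 or 2, 14 without Saline-Saline replicate 3, and 3 without Saline-SA replicates 3 and 4. Of 12 markers of oligodendrocyte precursors, all below 0 on the log2 scale, 4 were called lower. Tnr, tenascin-R of the perineuronal matrix, stood at 3.56, 3.798, 2.81 and 2.01 FPKM in Saline-SA and 11.8, 8.67, 9.901 and 9.11 in Saline-Saline. Every Saline-SA value was less than the lowest injected value by a wide margin (log2 fold change of -1.69 ± 0.20 (SE), BH-adjusted p = 0.000803 by limma). Gpr17, a receptor of maturing precursors, differed by -1.35, Olig2 by -0.66 and Pdgfra, the receptor that defines precursors, by -0.42.

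Among 20 astrocyte markers 3 were called lower and none higher, which is near the 13.9% of all genes. Slc1a2, the glutamate transporter GLT-1 that clears glutamate from synapses (rn6 chr3:92640752-92665644, plus strand), stood at 27.9, 30.4, 27.7 and 26.5 FPKM in Saline-SA and 129.8, 77.9, 109.9 and 76.6 in Saline-Saline. The Saline-SA libraries lay close together and far below the injected libraries (log2 fold change of -1.77 ± 0.16 (SE), BH-adjusted p = 0.0003 by limma). Slc4a4, a bicarbonate cotransporter, differed by -1.26 and Aqp4, the water channel of astrocyte endfeet, by -0.48. The others held no common direction: Gfap, the filament protein of reactive astrocytes, was at 102, 98.2, 93.9 and 209.9 FPKM in Saline-SA and 148, 169, 104 and 176 in Saline-Saline and was not called, and 13 of 20 markers had a negative log2 fold change. Setting medians equal called 3 astrocyte markers higher beside 3 lower, and without Saline-SA replicate 4 there were 5 lower. The summed FPKM of the astrocyte list was 2836 to 3620.3 in Saline-SA and 2792 to 3298 in Saline-Saline, and the groups overlapped. Among 22 microglial markers 3 were called lower (13.6%), also near the 13.9% of all genes. Cx3cr1, the fractalkine receptor of microglia, stood at 8.67, 8.54, 6.43 and 7.11 FPKM in Saline-SA and 15.1, 18.5, 12.7 and 11.6 in Saline-Saline, lower in each Saline-SA library (log2 fold change of -0.89 ± 0.16 (SE), BH-adjusted p = 0.00533 by limma). Csf1r differed by -0.33 and Itgam by -0.99, both called at adjusted values near the threshold (BH-adjusted p = 0.0425 and 0.0479 by limma). Only 1 microglial marker was lower without Saline-SA replicate 1, 2 or 3 or without Saline-Saline replicate 1, 2 or 4, and after setting medians equal.

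Part of the vascular markers were higher and none was lower. Of 13 markers of pericytes and vascular smooth muscle 7 were called higher, against 9.80% of all genes, and all 13 had positive log2 fold changes with a median of 0.75. Rgs5, a regulator of G protein signalling that marks pericytes (rn6 chr13:87966758-88003035, plus strand), stood at 43.5, 42.3, 48.1 and 36.5 FPKM in Saline-SA and 26.6, 28.97, 30.3 and 24.3 in Saline-Saline. The groups did not overlap (log2 fold change of 0.63 ± 0.10 (SE), BH-adjusted p = 0.0034 by limma). Kcnj8, the pericyte potassium channel subunit Kir6.1, stood at 2.29, 2.47, 2.74 and 2.63 FPKM in Saline-SA and 1.15, 1.28, 1.04 and 1.402 in Saline-Saline (log2 fold change 0.999). Myh11 (1.33), the smooth muscle myosin, Pdgfrb (0.86), Abcc9 (0.81), Notch3 (0.61) and Myl9 (0.60) were also called, and Acta2, smooth muscle actin, was at 9.76, 9.24, 12.9 and 16.1 FPKM in Saline-SA and 2.95, 3.94, 4.94 and 12.7 in Saline-Saline and was not. Of 21 endothelial markers 7 were higher (33.3% against 9.80% of all genes). Cldn5, the tight junction protein of brain vessels, stood at 54.1, 63.8, 69.9 and 67.7 FPKM in Saline-SA and 45.4, 49.7, 40.8 and 44.8 in Saline-Saline, above every Saline-Saline library (log2 fold change of 0.50 ± 0.094 (SE), BH-adjusted p = 0.00698 by limma). Esam (0.48), Sox17 (0.57), Eng (0.58), Vwf (0.64), Flt1 (0.43) and Podxl (0.36) made up the rest. The endothelial count fell to 2 to 4 when any library other than Saline-SA replicate 1 was left out, and the mural count stayed between 5 and 9. Without Saline-SA replicates 3 and 4 together, 1 endothelial and 4 mural markers were higher.

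Vegfa, the growth factor of vessels, was higher too, at 56.8, 64.5, 75.6 and 69.03 FPKM in Saline-SA and 48.7, 49.6, 47.7 and 44.3 in Saline-Saline (log2 fold change 0.48). Summed FPKM was 123 to 172 in Saline-SA and 76.3 to 121 in Saline-Saline for mural markers and 252 to 304 in Saline-SA and 229 to 245 in Saline-Saline for endothelium, without overlap in either. Red blood cell transcripts summed to 597 to 4649.8 in Saline-SA and 408 to 598 in Saline-Saline, with the top value in Saline-SA replicate 4, and 0 of 5 passed the test. The part of blood or vessels in other results was not tested. Fibroblast and meningeal markers had no call among 12, and Col1a1, a collagen of meninges, was at 1.46, 1.72, 1.38 and 4.46 FPKM in Saline-SA and 2.01, 1.39, 2.63 and 8.93 in Saline-Saline.

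**Figure D4:**
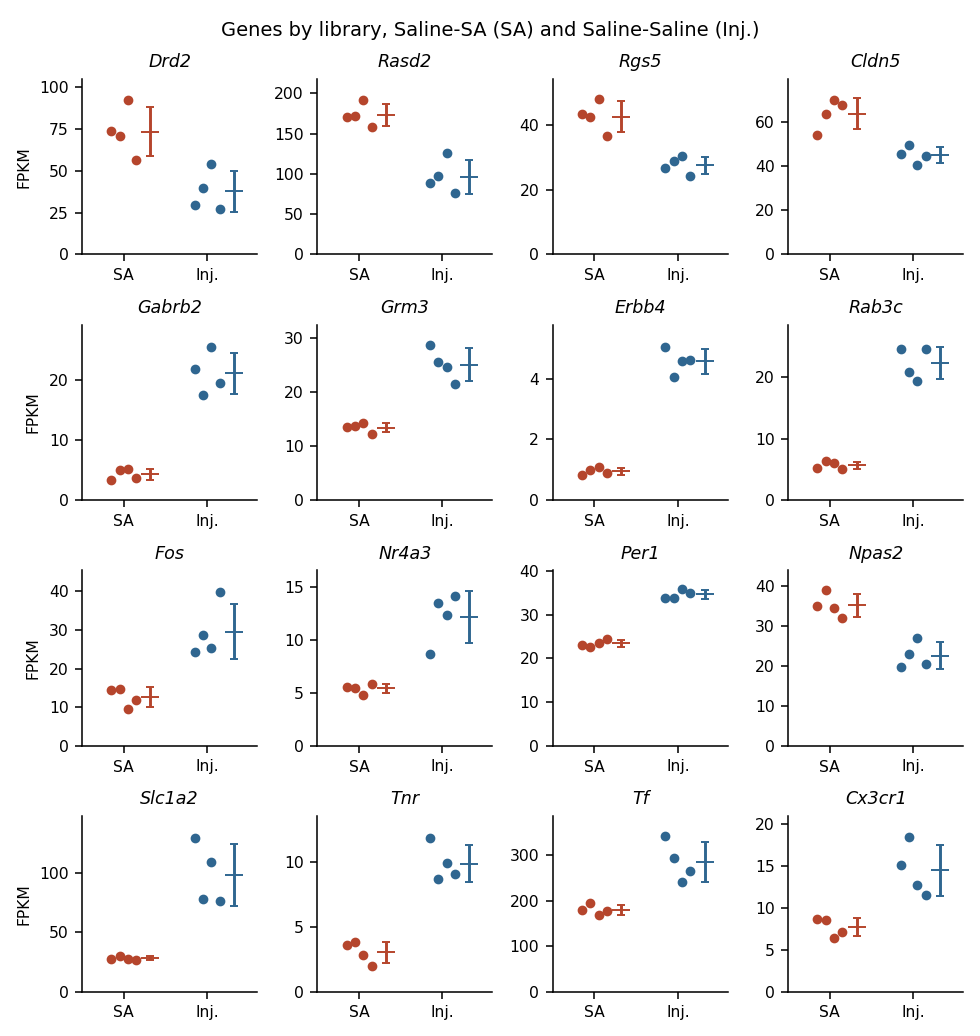
FPKM (y axes, linear and starting at 0) of 16 genes in the 4 Saline-SA libraries (SA, red) and the 4 Saline-Saline libraries (Inj., blue). Points are libraries in replicate order, and the bars beside them the mean ± SD (n = 4). In all 16 panels the groups do not overlap, as in 4288 of the 15150 genes tested. Saline-SA lies above for Drd2, Rasd2, Rgs5, Cldn5 and Npas2 and below for the others.

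Most GABA receptor genes were lower. Of 16 tested 10 were lower against 13.9% of all genes, and 1 was higher, with a median log2 fold change of -0.76. Gabrb2, the beta 2 subunit of the GABA-A receptor (rn6 chr10:27973681-28187565, plus strand), stood at 3.304, 4.95, 5.21 and 3.67 FPKM in Saline-SA and 21.8, 17.4, 25.4 and 19.5 in Saline-Saline. The highest Saline-SA library was several times below the lowest injected one (log2 fold change of -2.28 ± 0.17 (SE), BH-adjusted p = 0.000147 by limma). Gabrb1, the beta 1 subunit, stood at 2.01, 2.47, 1.89 and 3.103 FPKM in Saline-SA and 6.42, 4.66, 4.65 and 4.14 in Saline-Saline (log2 fold change -1.04). Other lower subunits included Gabra2 (-0.60), Gabra3 (-0.44), Gabrg1 (-1.16), Gabrg3 (-1.09) and the rare theta subunit Gabrq, which was listed at 0 in 1 Saline-SA library and reached 2.64 FPKM in Saline-Saline. Gabrd, the delta subunit of receptors outside synapses, was the higher one (0.40), a call lost without any 1 library other than Saline-Saline replicate 2 or 3. The count of lower members was 10 whichever library was left out, and with limma-voom it was 12, without the call of Gabrd. It was 8 without Saline-SA replicates 3 and 4.

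Glutamate receptor genes gave 8 lower and 2 higher of 25 (32% and 8%), against 13.9% and 9.80% of all genes. Grm3, the metabotropic receptor mGlu3, stood at 13.6, 13.8, 14.2 and 12.2 FPKM in Saline-SA and 28.7, 25.6, 24.6 and 21.4 in Saline-Saline. It was lower in every Saline-SA library (log2 fold change of -0.89 ± 0.10 (SE), BH-adjusted p = 0.000593 by limma). Grm5, the metabotropic receptor mGlu5, stood at 13.7, 16.6, 14.6 and 10.8 FPKM in Saline-SA and 30.5, 27.9, 38.7 and 26.7 in Saline-Saline, also without overlap (log2 fold change -1.15). Among ionotropic receptors the NMDA subunits Grin2a (-1.37) and Grin3a (-0.78), the AMPA subunit Gria1 (-0.30), the delta receptor Grid1 (-0.76) and the kainate subunit Grik3 (-0.73) were lower, and the kainate subunits Grik2 (0.74) and Grik5 (0.51) higher. Of dopamine, serotonin and adrenergic receptors 3 of 22 were lower and 3 higher, near the 13.9% and 9.80% of all genes. Adra1a, the alpha 1A adrenergic receptor, stood at 1.02, 0.617, 0.501 and 0.521 FPKM in Saline-SA and 2.04, 1.52, 2.11 and 2.01 in Saline-Saline (log2 fold change -1.44), Adra1b differed by -1.11 and Htr1b by -0.75, while Drd2, Adra2c (0.73) and Htr3a were higher. The higher count was 1 without Saline-SA replicate 1 or 2 or Saline-Saline replicate 1, 2 or 4, and 5 without Saline-Saline replicate 3. Of 8 opioid peptides and receptors 3 were lower and none higher. Oprm1, the mu opioid receptor at which heroin acts, stood at 0.294, 0.248, 0.316 and 0.2004 FPKM in Saline-SA and 0.902, 0.5604, 0.851 and 0.681 in Saline-Saline. The groups did not overlap, but levels were low, with 16 to 77 reads per library (log2 fold change of -1.21 ± 0.37 (SE), BH-adjusted p = 0.0421 by limma), and the call was lost whichever library was left out. Oprm1 also overlaps other rows of the table. Pomc, the precursor of beta-endorphin, stood at 0.983, 1.47, 1.11 and 1.25 FPKM in Saline-SA and 2.001, 2.54, 2.24 and 2.26 in Saline-Saline from 17 to 43 reads, and the nociceptin receptor Oprl1 differed by -0.54. Only 1 opioid gene was lower without Saline-SA replicate 1, 3 or 4 or Saline-Saline replicate 1, 2 or 4. Penk and Pdyn, the enkephalin and dynorphin precursors of D2 and D1 neurons, were at 437, 608, 730.4 and 387 FPKM in Saline-SA and 325, 450.3, 626 and 266 in Saline-Saline and at 134, 155, 170.2 and 121 FPKM in Saline-SA and 75.004, 95.8, 157 and 77.6 in Saline-Saline, and were not called.

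Potassium channel genes gave 11 lower and 5 higher of 45 (24.4% and 11.1%), against 13.9% and 9.80% of all genes. Kcna2, the Kv1.2 channel of axons, stood at 1.49, 1.97, 1.56 and 1.57 FPKM in Saline-SA and 7.36, 5.64, 6.17 and 8.105 in Saline-Saline. Saline-SA values were all well below the injected ones (log2 fold change of -1.98 ± 0.16 (SE), BH-adjusted p = 0.000175 by limma). Kcnj10, the Kir4.1 channel of glia, stood at 14.2, 12.3, 11.1 and 13.1 FPKM in Saline-SA and 31.7, 25.9, 29.7 and 29.03 in Saline-Saline (log2 fold change of -1.19 ± 0.094 (SE), BH-adjusted p = 0.000175 by limma). Kcnh5 (-2.14), Kcnj2 (-1.26), Kcnq3 (-1.15), Kcnma1 (-0.86), Kcns2 (-0.77), Kcna1 (-0.70), Kcnc2 (-0.63), Kcnc1 (-0.48) and Kcna6 (-0.43) were lower, and Kcnd1 (0.71), Kcnh3 (0.66), Kcnt1 (0.57), Kcnq5 (0.47) and Kcna4 (0.39) higher. The higher count was 3 without Saline-SA replicate 1, 2 or 3 or Saline-Saline replicate 1 or 2. Sodium, calcium and HCN channels gave 6 lower and 5 higher of 33 (18.2% and 15.2%), a little above the shares of all genes. Cacna2d1, an auxiliary calcium channel subunit, stood at 9.05, 8.77, 8.68 and 8.97 FPKM in Saline-SA and 14.97, 16.7, 21.5 and 16.2 in Saline-Saline (log2 fold change of -0.95 ± 0.11 (SE), BH-adjusted p = 0.000756 by limma), and Scn2a, the Nav1.2 channel, at 25.7, 24.5, 25.4 and 22.1 FPKM in Saline-SA and 33.1, 33.7, 35.2 and 34.6 in Saline-Saline (log2 fold change -0.48). Both were lower without overlap. Cacna1e (-0.78), the Cav2.3 channel, Cacng2 (-0.39) and Cacnb4 (-0.37) were lower too, and Cacna1d (0.76), the Cav1.3 channel, Cacnb3 (0.46), Cacng4 (0.44), Cacng3 (0.42) and Hcn2 (0.29) higher, where the higher count was 3 without Saline-SA replicate 2 or 3 or Saline-Saline replicate 1 or 2.

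Of 39 genes of synaptic vesicles and release 17 were lower and 1 higher (43.6% and 2.56%), against 13.9% and 9.80% of all genes. Rab3c, a small G protein of vesicles (rn6 chr2:41570597-41785792, minus strand), stood at 5.23, 6.33, 6.004 and 5.06 FPKM in Saline-SA and 24.5, 20.8, 19.3 and 24.5 in Saline-Saline. Every Saline-SA library was several times below every injected one (log2 fold change of -1.96 ± 0.11 (SE), BH-adjusted p = 4.56e-05 by limma). Erc2, a scaffold of the release site, stood at 2.804, 3.09, 2.38 and 1.79 FPKM in Saline-SA and 7.21, 10.3, 8.27 and 8.66 in Saline-Saline (log2 fold change -1.75). Sv2c (-1.45), Napb (-1.26), Rims3 (-1.07), Syt2 (-0.92) and Dnajc5 (-0.78) followed in size, and Slc32a1, the vesicular GABA transporter, was also lower (-0.53). The smallest lower call was Nsf (-0.25), the ATPase that takes SNARE complexes apart, and Napa was the higher one (0.34), though not without Saline-Saline replicate 1 or 4. The lower count was 11 without Saline-Saline replicate 2 or 4, and 12 without Saline-SA replicates 3 and 4. Of 27 postsynaptic scaffold and adhesion genes 7 were lower and 2 higher (25.9% and 7.41%). Camk2a, the calcium kinase of the postsynaptic density, stood at 168, 184, 178 and 152 FPKM in Saline-SA and 234, 232, 267 and 255 in Saline-Saline, lower without overlap (log2 fold change of -0.54 ± 0.081 (SE), BH-adjusted p = 0.00257 by limma). Also lower were Homer1 (-1.19), Dlg2 (-0.84), Lrrtm2 (-0.58), Dlgap2 (-0.57) and Nlgn3 (-0.31). Shank3 (0.47) and Dlgap3 (0.78), scaffolds prominent in striatal neurons, were higher, a count of 1 without Saline-Saline replicate 1 or 4 and of 4 without Saline-Saline replicate 3.

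Some immediate early genes were lower after self-administration of saline. Of 27 tested 10 were lower and 1 higher, against 13.9% and 9.80% of all genes, with a median log2 fold change of -0.47. Fos, the transcription factor subunit widely used as a marker of recent neuronal activity (rn6 chr6:109300433-109303299, plus strand), stood at 14.6, 14.8, 9.54 and 11.8 FPKM in Saline-SA and 24.3, 28.6, 25.3 and 39.8 in Saline-Saline. The highest Saline-SA library was below the lowest Saline-Saline library (log2 fold change of -1.20 ± 0.19 (SE), BH-adjusted p = 0.00287 by limma). Nr4a3, an orphan nuclear receptor, stood at 5.59, 5.43, 4.83 and 5.86 FPKM in Saline-SA and 8.66, 13.4, 12.3 and 14.1 in Saline-Saline (log2 fold change of -1.13 ± 0.15 (SE), BH-adjusted p = 0.00161 by limma). Fosl2 stood at 2.48, 4.93, 5.09 and 5.36 FPKM in Saline-SA and 11.4, 14.7, 12.2 and 13.7 in Saline-Saline, with the lowest value in Saline-SA replicate 1 (log2 fold change -1.57). Homer1, whose short form is induced by activity, differed by -1.19, Egr2 by -1.15, Fosb by -0.63, Egr3 by -0.62, Ier5 by -0.61, Dusp6 by -0.60 and Egr1 by -0.50. Egr1 itself stood at 62.8, 62.9, 49.7 and 54.4 FPKM in Saline-SA and 63.7, 79.6, 89.5 and 95.2 in Saline-Saline, where the groups nearly met. Not all such genes were lower: Arc, which acts at excitatory synapses, was at 50.8, 49.5, 40.2 and 39.4 FPKM in Saline-SA and 27.5, 50.6, 49.05 and 62.2 in Saline-Saline, and Npas4, an activity-dependent transcription factor, at 8.24, 7.63, 6.697 and 6.398 FPKM in Saline-SA and 3.21, 6.76, 8.86 and 14.5 in Saline-Saline, and neither was called. Klf2 was higher (0.58), a call lost without Saline-SA replicate 2 or 3 or Saline-Saline replicate 1 or 2. The count of lower genes was 10 in the test as described, 6 after setting medians equal, 6 without Saline-SA replicate 1, 5 without Saline-SA replicate 3 or 4 or both, and 4 without Saline-Saline replicate 2 or 4.

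The promoters of lower immediate early genes were searched for the core of the cyclic AMP response element (CRE core, TGACG on either strand), for the CArG box of serum response factor and for the E-box CACGTG, in windows of 300 bases that run from 250 before to 50 after the start in RefSeq (build GRCr8). Promoters were matched for 7 of the 11 called immediate early genes and 5 of the 6 called clock genes. None was matched for Fos, Egr3, Nr4a3, Klf2 and Hlf, which were therefore not searched. Egr1 and Egr2 held both a CRE core and a CArG box, and the other 5 immediate early promoters held neither. Over 33469 promoters of the same length, 21.2% held a CRE core, 1.64% a CArG box and 6.42% the E-box. The Egr2 promoter (GRCr8 chr20:21054392-21054691, minus strand) is shown because both motifs lie side by side in it, and the Bhlhe40 promoter (GRCr8 chr4:143174200-143174499, plus strand) because it was the clock gene promoter with an E-box. Capitals mark the CArG box and the reverse complement of the CRE core in Egr2 and the E-box in Bhlhe40.
Egr2: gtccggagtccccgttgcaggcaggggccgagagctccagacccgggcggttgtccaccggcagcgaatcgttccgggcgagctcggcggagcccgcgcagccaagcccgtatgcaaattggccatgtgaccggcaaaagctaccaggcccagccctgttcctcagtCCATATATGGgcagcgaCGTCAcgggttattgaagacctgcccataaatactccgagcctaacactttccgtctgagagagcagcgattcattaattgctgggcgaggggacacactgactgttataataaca
Bhlhe40: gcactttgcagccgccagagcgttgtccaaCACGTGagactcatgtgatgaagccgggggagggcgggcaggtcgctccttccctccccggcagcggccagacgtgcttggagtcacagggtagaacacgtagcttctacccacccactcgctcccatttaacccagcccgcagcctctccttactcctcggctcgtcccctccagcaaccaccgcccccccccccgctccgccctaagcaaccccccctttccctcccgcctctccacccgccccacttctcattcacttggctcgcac
A match describes the letters of the window and does not show a factor bound there.

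Clock genes were called in both directions. Of 23 tested 4 were lower and 2 higher, near the 13.9% and 9.80% of all genes. Per1, a repressor of the clock that also responds to light and hormones (rn6 chr10:55687050-55695994, plus strand), stood at 23.1, 22.6, 23.6 and 24.4 FPKM in Saline-SA and 33.8, 33.7, 35.8 and 35.04 in Saline-Saline. There was no overlap and hardly any spread within a group (log2 fold change of -0.56 ± 0.056 (SE), BH-adjusted p = 0.000426 by limma). Npas2, the partner of Bmal1 in forebrain (rn6 chr9:45901741-46081880, plus strand), stood at 35.2, 39.05, 34.6 and 32.02 FPKM in Saline-SA and 19.8, 23.1, 27.1 and 20.4 in Saline-Saline, higher in Saline-SA without overlap (log2 fold change of 0.65 ± 0.11 (SE), BH-adjusted p = 0.00412 by limma). Rorb stood at 1.44, 1.71, 1.76 and 1.38 FPKM in Saline-SA and 3.12, 2.94, 3.03 and 3.03 in Saline-Saline (log2 fold change -0.91), Hlf differed by -0.71 and Bhlhe40, a repressor induced by light and activity, by -0.46. Per3 was higher (0.30), and Saline-SA replicate 3 had the lowest Bhlhe40 level at 15.5, 14.9, 10.6 and 15.2 FPKM in Saline-SA and 18.4, 18.7, 19.04 and 20.7 in Saline-Saline. Dbp, a strongly rhythmic output gene, was at 139.8, 91.4, 196 and 141 FPKM in Saline-SA and 114, 141, 168 and 105 in Saline-Saline, and Arntl, which encodes Bmal1, at 12.01, 13.4, 11.8 and 10.6 FPKM in Saline-SA and 9.23, 9.53, 11.4 and 11.3 in Saline-Saline, neither called. Without Saline-Saline replicate 2 or 3 the lower count was 2, and without Saline-SA replicate 1 or 3 or Saline-Saline replicate 1, 2 or 4 the higher count was 1. Times of day of collection are not given in the sources used here.

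Of 23 glucocorticoid receptors and targets 5 were lower and 2 higher (21.7% and 8.70%), against 13.9% and 9.80% of all genes. Klf9, a transcription factor induced by corticosterone and thyroid hormone, stood at 23.5, 24.2, 22.9 and 15.5 FPKM in Saline-SA and 39.9, 39.3, 43.9 and 29.7 in Saline-Saline. Saline-SA was lower throughout, most of all in replicate 4 (log2 fold change of -0.83 ± 0.17 (SE), BH-adjusted p = 0.00839 by limma). Nr3c2, the mineralocorticoid receptor, stood at 3.73, 3.701, 3.66 and 2.903 FPKM in Saline-SA and 6.18, 5.24, 6.91 and 7.12 in Saline-Saline (log2 fold change -0.84), and Pdk4, a kinase that inhibits pyruvate dehydrogenase, at 1.84, 2.23, 3.800000 and 4.64 FPKM in Saline-SA and 16.5, 10.6, 6.79 and 5.16 in Saline-Saline (log2 fold change -1.57). Zbtb16 differed by -0.81 and the kinase Sgk1 by -0.96. Mt1, a metallothionein that binds zinc, stood at 51.1, 58.8, 67.9 and 72.1 FPKM in Saline-SA and 23.02, 37.6, 35.9 and 33.5 in Saline-Saline, above every Saline-Saline library (log2 fold change of 0.95 ± 0.17 (SE), BH-adjusted p = 0.00466 by limma), and Sult1a1, a sulfotransferase, was higher too (0.97). Fkbp5, a cochaperone of the receptor, was at 25.5, 26.9, 28.3 and 21.7 FPKM in Saline-SA and 18.5, 19.3, 24.7 and 15.5 in Saline-Saline, and Nr3c1, the glucocorticoid receptor itself, at 18.9, 18.6, 17.5 and 14.4 FPKM in Saline-SA and 19.6, 19.6, 18.3 and 16.6 in Saline-Saline in the row of its symbol with the highest level. Neither was called. Calls in this list thus lay on both sides, as they did over all genes. The count of lower members was 2 without Saline-Saline replicate 1 and 3 without Saline-SA replicate 1, 2 or 3 or Saline-Saline replicate 2. The higher count was 4 without Saline-Saline replicate 1 and 1 without Saline-SA replicate 3 or Saline-Saline replicate 2 or 4.

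Chaperone lists held lower calls only. Endoplasmic reticulum chaperones gave 6 lower of 18 (33.3% against 13.9% of all genes). Hsp90b1, the chaperone GRP94, stood at 81.6, 92.3, 98.4 and 102 FPKM in Saline-SA and 133, 130.3, 128 and 129 in Saline-Saline (log2 fold change of -0.48 ± 0.075 (SE), BH-adjusted p = 0.00313 by limma), and Canx, calnexin, at 93.5, 103, 101 and 94.8 FPKM in Saline-SA and 130.5, 130.3, 122 and 131 in Saline-Saline (log2 fold change -0.39). Both groups were tight and apart. Dnajc3 (-0.55), Sel1l (-0.32), Hyou1 (-0.32) and Pdia3 (-0.23) were the others. Heat shock chaperones gave 6 lower of 19, and 2 without Saline-Saline replicate 4. Hspa4 stood at 58.6, 57.2, 57.6 and 54.4 FPKM in Saline-SA and 70.05, 66.2, 69.3 and 69.2 in Saline-Saline (log2 fold change -0.27), Hspa4l differed by -0.41, Dnaja1 by -0.38, Hsp90ab1 by -0.30 and the mitochondrial chaperonin Hspd1 by -0.29. The row of Hsp90aa1 held only 3 to 63 reads per library and overlaps other genes, so its call (-2.10) is uncertain. Among 5 cold-inducible RNA-binding genes Srsf5 (-0.53), Sfpq (-0.40) and Cirbp (-0.30) were lower, and Srsf5 stood at 164, 206, 166 and 155 FPKM in Saline-SA and 263, 219, 257 and 252 in Saline-Saline. That count was 1 without Saline-Saline replicate 1. Without Saline-SA replicates 3 and 4 the lower counts were 4 for the endoplasmic reticulum, 2 for heat shock and 0 for cold-inducible genes.

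Of stress and lipid synthesis lists, the amino acid and integrated stress response list gave 4 lower and 2 higher of 17. These were 23.5% and 11.8%, against 13.9% and 9.80% of all genes. Asns, asparagine synthetase, stood at 16.4, 16.1, 17.4 and 15.04 FPKM in Saline-SA and 21.9, 21.1, 22.4 and 23.5 in Saline-Saline (log2 fold change of -0.45 ± 0.069 (SE), BH-adjusted p = 0.00273 by limma), and Vldlr, a lipoprotein and reelin receptor, at 11.5, 11.4, 12.1 and 11.3 FPKM in Saline-SA and 23.2, 18.5, 16.8 and 18.4 in Saline-Saline (log2 fold change -0.72). Both were lower in every Saline-SA library. Slc38a2 (-0.34) and Phgdh (-0.34) were lower, and Shmt2 (0.34) and Ppp1r15a (0.36) higher, where 1 was higher without any 1 library other than Saline-SA replicate 1 or Saline-Saline replicate 4. Cholesterol synthesis gave 5 lower and none higher of 24, among them Sqle, squalene epoxidase, at 16.8, 19.99, 14.8 and 14.5 FPKM in Saline-SA and 25.7, 28.2, 21.3 and 27.997 in Saline-Saline (log2 fold change -0.64), with Hmgcs1 (-0.50), Acat2 (-1.005) and Sc5d (-0.35). That count moved between 2 and 8 when 1 library was left out, by over 1.5 times for each library except Saline-SA replicates 1 and 2, and was 0 without Saline-SA replicates 3 and 4. Of 31 proteasome genes 3 were lower, a share of 9.68% that is below the 13.9% of all genes. They were Psmd1 (-0.36), Psmd2 (-0.23) and Psmd6 (-0.23).

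Regulators of chromatin and splicing were called in both directions, as genes were in general (13.9% lower and 9.80% higher). Of 58 chromatin modifying enzymes and readers 9 were lower and 8 higher (15.5% and 13.8%), near those shares. Kdm7a, a histone demethylase, stood at 1.04, 0.882, 0.6998 and 0.918 FPKM in Saline-SA and 2.98, 2.74, 3.09 and 2.56 in Saline-Saline. It was lower in all Saline-SA libraries (log2 fold change of -1.59 ± 0.18 (SE), BH-adjusted p = 0.000756 by limma). By contrast, the acetyltransferase Crebbp (0.79) and the DNA methyltransferase Dnmt3a (0.53) were higher. Of 46 spliceosome and splicing genes 8 were lower and 10 higher (17.4% and 21.7%). Srrm2, a large spliceosome protein, stood at 54.2, 60.4, 58.5 and 66.3 FPKM in Saline-SA and 106, 85.1, 103 and 114 in Saline-Saline, and Tra2a, a splicing activator, at 75.5, 71.2, 76.5 and 78.5 FPKM in Saline-SA and 47.1, 45.6, 48.5 and 54.9 in Saline-Saline. They differed by -0.76 and 0.62 on the log2 scale, each without overlap. With limma-voom splicing calls were 13 lower and 6 higher, and with medians set equal 5 lower and 12 higher. For chromatin genes the same settings gave 11 lower and 5 higher, and 6 lower and 14 higher. Leaving out Saline-SA replicate 2 or Saline-Saline replicate 1 or 3 gave 5 lower chromatin genes, and leaving out Saline-Saline replicate 1, 2 or 4 gave 5, 4 and 3 higher ones. For splicing, 5 were lower without Saline-Saline replicate 1 or 3 and 6 higher without Saline-Saline replicate 4. H2afx (0.34) and H1fx (0.45) were the 2 histone genes called of 12, both higher.

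Immune lists were nearly empty. None of 24 interferon-stimulated genes and none of 14 antigen presentation genes was called, where limma-voom called 2 interferon-stimulated genes lower. Of 22 cytokine and NF-kB response genes Cxcl12, a chemokine of vessels and neurons, was higher at 13.2, 13.3, 15.1 and 12.9 FPKM in Saline-SA and 10.2, 11.3, 10.02 and 11.1 in Saline-Saline (log2 fold change 0.35), and without Saline-SA replicate 1 or 2 there were 2 higher. Of 22 neurotrophic factors and receptors 4 were lower (18.2% against 13.9% of all genes), and Vegfa was higher. Erbb4, the neuregulin receptor of interneurons (rn6 chr9:75021790-75528644, minus strand), stood at 0.822, 1.01, 1.08 and 0.9097 FPKM in Saline-SA and 5.04, 4.05, 4.57 and 4.61 in Saline-Saline. Its injected level was several times the Saline-SA level in every library (log2 fold change of -2.15 ± 0.15 (SE), BH-adjusted p = 0.000112 by limma). Gfra1 (-0.71), Fgf2 (-0.64) and Fgfr2 (-0.38) were the other lower genes, and the count was 2 without Saline-SA replicate 3 or Saline-Saline replicate 1 or 4. Sox11 alone of 15 cell division and progenitor genes was called (-0.77).

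The same contrast of experiments was examined in 8 libraries that the comparison above did not use. Heroin-SA rats self-administered heroin at 0.075 mg/kg an infusion on the schedule of the Saline-SA rats, and Saline-Heroin rats were given saline as the first 5 injections and heroin rising from 1 to 5 mg/kg over 5 days, euthanized 1 h after the last. Heroin dose, route and timing therefore also differ between these groups. Of 15099 genes 1099 (7.28%) were called higher and 1119 (7.41%) lower in Heroin-SA. Of the 3573 genes called between the saline groups and tested in both, 3453 (96.6%) had the same sign and 1451 were called in the same direction, which is 40.6% of the saline calls and 65.6% of the 2212 heroin calls tested in both. Only 2 genes were called in opposite directions. These counts come from the fits without a replicate block. With replicate number as a block, 842 rather than 2218 genes were called between the heroin groups, and 3346 rather than 3584 between the saline groups. The median change of the saline calls, with the saline direction counted as positive, was 0.53 on the log2 scale between the saline groups and 0.37 between the heroin groups. These genes were chosen by their saline result, which by itself favours a larger value between the saline groups. The medians therefore do not show a smaller change between the heroin groups. For the difference of both contrasts no gene of 15151 passed a BH-adjusted p under 0.05 by limma, with 993 under an unadjusted 0.05, and the smallest adjusted value was 0.285.

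**Figure D5:**
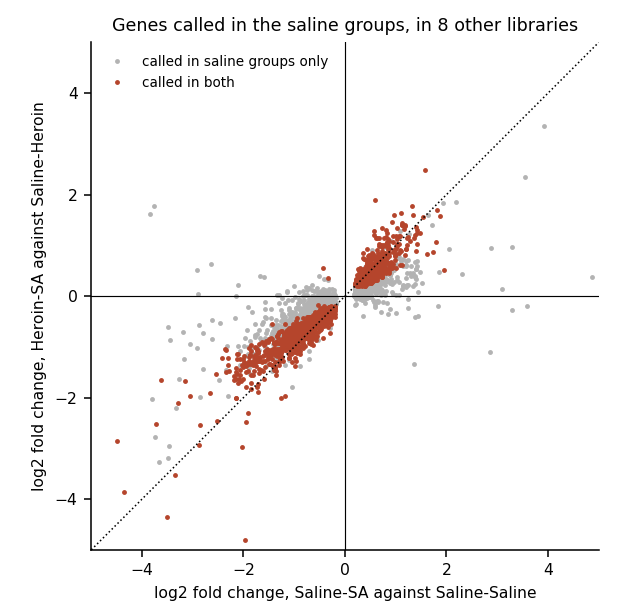
Log2 fold changes of genes called between Saline-SA and Saline-Saline (x axis) against their log2 fold changes between Heroin-SA and Saline-Heroin (y axis), which share no library. Each point is 1 of 3573 genes, red where called in both, and the dotted line marks equal values. Of these genes 96.6% had the same sign in both, and points lie mostly between the dotted line and the horizontal axis. The choice of genes by their saline result by itself favours such a position.

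In these 8 libraries Gabrb2 had a log2 fold change of -1.47, Erbb4 of -2.01, Rab3c of -1.39, Slc1a2 of -1.17, Drd2 of 0.71, Npas2 of 0.68, Rgs5 of 1.14 and Per1 of -0.32, and all of these were called. Fos (-0.89), Nr4a3 (-0.60), Egr1 (-0.22), Mt1 (0.044), Cx3cr1 (-0.24), Tf (-0.10), Rpl3 (0.021), Hsp90b1 (-0.10) and Chchd10 (-1.10) were not called, and no named gene passed the test of the difference between the contrasts. By list, GABA receptors gave 6 lower calls of 16, ribosomal proteins 24 higher of 67, mitochondrially encoded proteins 8 higher of 13, medium spiny neuron markers 10 higher of 30, mural markers 5 and endothelial markers 7 higher, immediate early genes 3 lower of 28 and mature oligodendrocyte markers 1 lower of 22, against 7.28% higher and 7.41% lower of all genes. Endoplasmic reticulum and heat shock chaperones, lower between the saline groups, each had 4 higher and no lower calls between the heroin groups, and fibroblast markers, not called between the saline groups, had 7 lower. These differences between the contrasts were not tested by list.

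Across all 24 libraries, 1084 of 15150 genes (7.16%) had all 8 self-administration libraries above or all below all 16 injection libraries, 471 above and 613 below. Per1 was among those below: Heroin-SA lay at 21.7 to 24.6 and the 12 libraries of the other injection groups at 25.996 to 43.1 FPKM. Gabrb2 (2.98 to 11.4 against 14.8 to 32.99), Erbb4 (0.431 to 2.59 against 2.99 to 7.76), Rab3c (5.68 to 11.3 against 15.2 to 31.7) and Dhx9 (9.61 to 14.4 against 24.6 to 32.5) were too. Zfp958, Zcchc7, Shisa7, Tra2a, Vegfa, Rasd2 and Kcnj8 were among those above, along with 8 of the 13 protein-coding genes of chromosome MT. For Fos the other injection libraries reached from 10.5 to 53.5 FPKM, which overlapped the Heroin-SA range of 4.48 to 11.3, and for Drd2 the Heroin-SA range of 52.1 to 67.5 began below Saline-Saline replicate 3. Below were 5 of 16 GABA receptor genes, 5 of 39 synaptic vesicle genes and 5 of 46 splicing genes, against 613 of 15150 genes. Above were 7 of 46 splicing genes and 5 of 67 ribosomal protein genes, against 471 of 15150 genes.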

How the data were processed

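RNA of 1 rat per library was selected by poly(A), made into directional libraries and sequenced, and the authors deposited 1 table of FPKM for 32545 genes in 24 libraries. Per the submitters' processing notes the tools were fastp, HISAT2 and featureCounts and the build rn6. The strand setting of counting is not given in the sources used here. FPKM values came out as whole reads for every value (tolerance 0.01 of a read), which gave library depth and the share of reads on chromosome MT. No count column was used, and 0 sample columns were unmapped. Groups were taken from the labels, which number 4 rats in each group. The study's methods state another number of rats sequenced per group, another interval between injection phases and a time to euthanasia counted from the locomotor session, and the labels were followed. They do not say whether they were handled together, so p-values measure the spread between these rats.

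Genes with a mean of at least 0.5 FPKM over the compared libraries were tested on log2(FPKM + 0.1) with limma 3.58.1 (empirical Bayes with an intensity trend, R 4.3.3) on the 8 libraries, with p-values adjusted by Benjamini-Hochberg over all genes tested and called under 0.05. The fit was tested on simulated data. Shares of reads were compared by a two-sided exact permutation test over libraries (scipy 1.17.1). Other steps ran in Python 3.11.15 with numpy 2.4.6, pandas 2.3.3 and matplotlib 3.10.9. Alternatives were other pseudocounts, filters, thresholds and scalings, limma-voom on recovered reads, all 6 groups in a single fit, a replicate block, and leaving out each library. Among the scalings, the trimmed mean of M-values gave library factors of 0.939 to 1.004 in Saline-SA and 1.007 to 1.050 in Saline-Saline. These lay close to the ratios of the deposited totals to the reads on genes, so that scaling is hardly a separate alternative.

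Named genes were, in each direction, the 8 called genes with the smallest p and the 4 with the largest fold change among those with a proper symbol, groups that do not overlap and a mean of at least 50 reads in the higher group, then in each of 44 lists the 2 called members with the smallest p (5 for clock, immediate early and glucocorticoid lists), defining markers, and the 13 protein-coding genes of chromosome MT. Other called list members are given by log2 fold change. Hba1, Npy, Penk, Pdyn, Arc, Npas4, Dbp, Arntl, Fkbp5 and Nr3c1 were named after their values were seen. The comparison and the lists were chosen with earlier results of these data known. Of 1146 list entries 1081 were matched by symbol. Foxj1, a defining marker of cilia, was not among the symbols used here. Some members that the rule would name are not reported here, while list counts cover all members.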

Additional observations from a re-analysis of the deposited data

Results flagged for a closer look

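Of 252 sets of 4 libraries examined for the named genes, 18 had a highest or lowest library whose gap to the nearest other exceeded the critical value of Dixon's test, where chance flags about 1 in 20. In Saline-SA replicate 4 the values were 63.8 FPKM for Ankrd10 (others 56.3 to 57.3), 4.46 for Col1a1 (1.38 to 1.72), 209.9 for Gfap (93.9 to 102), 3.33 for Gjc3 (7.51 to 8.25), 15.5 for Klf9 (22.9 to 24.2) and 2.90 for Nr3c2 (3.66 to 3.73). This is also the library with the highest haemoglobin level, and the part of that in these values was not tested. In Saline-SA replicate 3 Bhlhe40 stood at 10.6 FPKM (14.9 to 15.5), Cxcl12 at 15.1 (12.9 to 13.3) and Psmd2 at 60.5 (63.1 to 63.3). In Saline-SA replicate 2 H2afx stood at 29.2 FPKM (35.1 to 36.3) and Kcna2 at 1.97 (1.49 to 1.57), and in replicate 1 Fosl2 at 2.48 (4.93 to 5.36).

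Among Saline-Saline libraries, replicate 1 held Ttr at 318 FPKM (0 to 5.35), Fam131a at 2.46 (1.15 to 1.30), Atp5a1 at 358 (396 to 400.2) and Snph at 39.99 (43.8 to 43.98). Canx stood at 122 FPKM in replicate 3 (130.3 to 130.6), and Col1a1 at 8.93 in replicate 4 (1.39 to 2.63). The called genes among these kept groups that do not overlap, since no such library crossed into the other group.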

How the results depend on the processing

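The count of called genes, 3584, was within 1.5 times of that value under every alternative pseudocount, filter and scaling, with limma-voom and with all 6 groups in a single fit. Stricter and looser thresholds moved it to 658 (117 higher, 541 lower) for genes that also differed by 1 or more on the log2 scale, to 1443 (421 higher, 1022 lower) at an adjusted p under 0.01 and to 5601 (2581 higher) at an unadjusted p under 0.05. Leaving out 1 library gave 2391 to 3102 calls, 900 to 1237 of them higher and 1491 to 1891 lower, with the higher count at 971 without Saline-SA replicate 3, 900 without Saline-Saline replicate 1 and 916 without Saline-Saline replicate 4. Without Saline-SA replicates 3 and 4, which stood apart (chosen after seeing the data), 1969 were called (599 higher, 1370 lower), and 33 of the 111 called named genes were lost. The difference in the mitochondrial share was 5.17 percentage points with all 8 libraries and 4.19 to 5.91 on leaving out 1 library. Each time the groups did not overlap and the exact permutation p was 0.0571. Fewer libraries give fewer splits, so that p by itself does not show a weaker difference. Over the 125 named genes, 2454 values under alternatives kept their direction and side of the threshold, and 140 lost and 13 gained the call. Mt-cytb, a called gene, changed sign to -0.11 under quantile normalization. Another 10 values of 5 genes that were not called changed sign without a call: Mt-co1 and Mt-nd4l under quantile normalization, and Mt-nd4l, Chat, Col1a1 and Slc17a7 on leaving out libraries. The fits that left out libraries hold fewer of them, whereas those under quantile normalization hold all 8. The cause of these changes was not tested.

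The labels do not pair rats of the groups by replicate number. Deviations of same-numbered Saline-SA and Saline-Saline libraries correlated at 0.035, -0.078, 0.116 and 0.061. Saline-SA replicates 1, 3 and 4 correlated best with their own number, and replicate 2 with Saline-Saline replicate 1 (0.065). Of the Saline-Saline libraries, replicates 3 and 4 correlated best with their own number and replicates 1 and 2 did not. Whether the numbers mark rats handled together was not tested. A replicate block gave 3346 calls (1396 higher, 1950 lower) between the saline groups and 842 between Heroin-SA and Saline-Heroin, against 2218 without it. Genes with few reads are limited by depth: 269 of the called genes had under 50 reads a library on average.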
